A study of Mus musculus with 31 samples.

Results

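The response of the liver to PF-04287881 was compared between 2 inbred mouse strains, NZW/LacJ and WSB/EiJ. For each gene the quantity was the drug effect in NZW/LacJ (PF-04287881 minus vehicle) minus the drug effect in WSB/EiJ, in log2 units. The 15 arrays of these strains, of 31 in the whole series, were chosen by their labels. They were 4 NZW/LacJ animals given PF-04287881, 4 NZW/LacJ animals given vehicle, 3 WSB/EiJ animals given PF-04287881 and 4 WSB/EiJ animals given vehicle. All were female inbred mice, 8 to 10 weeks old, with no further allele named in the labels; another treated WSB/EiJ animal was lost to a dosing accident. PF-04287881, an experimental macrolide antibiotic, was given by oral gavage at 600 mg/kg once a day for 7 days, and the vehicle was sterile water. The left liver lobe was taken 24 hours after the last dose, and its RNA was hybridised to 1-colour expression arrays. Each array held 1 animal. The fit also used arrays of 2 other strains, MA/MyJ and SM/J, with 4 treated and 4 vehicle animals of each. Their labels give the same drug, dose, days of dosing and age. In the design text, NZW/LacJ livers were coded as having vacuolated Kupffer cells and single cell necrosis, and WSB/EiJ livers as having neither.

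PF-04287881 belongs to the cationic amphiphilic drugs, which collect in lysosomes and can cause phospholipidosis, a storage of undigested phospholipid. Macrolides act by binding the ribosome of bacteria, and the ribosome of mitochondria descends from a bacterial one. The liver answers drugs and stress by shifting the transcripts of drug metabolism, lipid and sterol synthesis, chaperones, protein breakdown and acute phase proteins. WSB/EiJ is a wild-derived strain and NZW/LacJ a classical laboratory strain, so DNA sequence under array probes can differ between them. For this reason the drug effects were taken within each strain and compared as differences.

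One array went against its label. In probe sets private to WSB/EiJ, scaled so that other strains lie near 0 and WSB/EiJ near 1, the treated animal labelled WSB/EiJ number 3 had -0.00983, and the remaining 6 arrays of that strain had 0.89 to 1.06. In probe sets private to NZW/LacJ, chosen on vehicle arrays, it had 1. The NZW/LacJ vehicle animals had 0.976 to 1.02 there, and the treated ones 0.806 to 0.837. All results below leave this array out unless stated, so that the WSB/EiJ treated group holds 2 animals. The main counts are given again with it under its label, which is not a second measure of the WSB/EiJ drug response. Vehicle animals of WSB/EiJ were also less alike than those of NZW/LacJ. Their first principal component values were 31, 45, 54.4 and 12.9, against 59.5 and 60 in the treated WSB/EiJ animals, while the 8 NZW/LacJ arrays lay between -24.9 and -11.4. The difference between the 3′ and 5′ control probe sets of Actb, a sign of RNA integrity and labelling, was 1.66 and 1.55 in treated WSB/EiJ animals, against 0.952, 1.13, 1.52 and 1.06 in WSB/EiJ vehicle animals. In NZW/LacJ it was 1.38, 1.07, 1.3 and 1.13 in treated animals, against 0.841, 0.776, 0.808 and 0.815 in vehicle animals. It was therefore higher in the treated animals of both strains, with no overlap, and WSB/EiJ vehicle animal 3 lay close to the treated animals of its strain. The array in doubt had 0.82, and -12.6 on the first principal component. Both lay within the NZW/LacJ vehicle values and outside the NZW/LacJ treated ones. Whether that animal was treated was not tested. The part of the Actb and principal component differences in the results was not tested. The only exception was the fit with the Actb difference as a covariate, given beside the counts. Each SE and adjusted p below rests on 1 spread per gene shared by all groups, so it does not measure the spread of WSB/EiJ animals alone.

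Of 12890 genes tested with limma, 4251 (33% of all tested) had a drug effect that differed between the strains at an adjusted p under 0.05. The effect was higher in NZW/LacJ for 2779 of them (21.6%) and lower for 1472 (11.4%). Within NZW/LacJ, 3436 genes (26.7%) changed, 2360 higher (18.3%) and 1076 lower (8.35%) after PF-04287881. Within WSB/EiJ, 4180 genes (32.4%) changed, 1784 higher (13.8%) and 2396 lower (18.6%). The balance of rises and falls was thus turned, with more rises in NZW/LacJ and more falls in WSB/EiJ. The median effect over all genes tested was 0.0208 in NZW/LacJ and 0.0211 in WSB/EiJ, which the normalisation of the arrays to a common distribution keeps near 0. The strains also differed widely without the drug: 5629 genes (43.7%) differed between the vehicle groups, 2490 higher (19.3%) and 3139 lower (24.4%) in NZW/LacJ, a count that can include probe sequence differences. The vehicle comparison and the drug effects share the vehicle arrays.

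Part of this difference was movement in opposite directions. In 758 genes (5.88% of all tested) the drug effect passed the test in each strain with opposite signs and the difference also passed. Of these, 643 (4.99%) rose in NZW/LacJ and fell in WSB/EiJ, and 115 (0.892%) fell in NZW/LacJ and rose in WSB/EiJ. Another 570 genes passed in both strains with the same sign, 350 higher and 220 lower, and 59 of these differed in size between the strains. The difference rested on an effect that passed in NZW/LacJ alone for 1126 genes and in WSB/EiJ alone for 1955 genes, and for 353 genes it passed though neither strain's own effect did. The 643 genes had a median effect of 0.462 in NZW/LacJ and -0.571 in WSB/EiJ, and the 115 genes had medians of -0.349 and 0.471. Effects beyond 0.5 in both strains were found for 216 and 16 of them, and beyond 1 for 16 and 3. Between the vehicle groups, 347 of the 643 genes were higher in WSB/EiJ and 55 higher in NZW/LacJ. Of the 115 genes, 8 were higher in WSB/EiJ and 39 in NZW/LacJ. Over all genes tested these shares were 24.4% and 19.3%. The same vehicle arrays enter the vehicle comparison and the drug effects with opposite signs, which favours such a tilt. In 601 of the 758 genes (527 and 74) the treated and vehicle animals did not overlap in either strain, which the choice of the genes favours. Over all genes tested, in any direction, this held for 14.1% in both strains at once, for 34% in NZW/LacJ and for 37.8% in WSB/EiJ. Just inside the limits lay Rai14 (0.35 in NZW/LacJ and -0.48 in WSB/EiJ), Pcca (0.32 and -0.54), Ciapin1 (-0.26 and 0.36) and Wdr43 (-0.39 and 0.54). Just outside lay Iars2 (0.43 and -0.33), Nap1l3 (0.50 and -0.82), Asf1a (-0.35 and 0.35) and Ccar1 (-0.28 and 0.41).

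These counts depended on single WSB/EiJ animals and on the choice of probe set. With the array in doubt included, 3101 genes differed between the strains and 523 moved in opposite directions, 442 of them among the 758, and 752 of the 758 kept their signs in both strains. Without treated WSB/EiJ animal 1, which leaves 1 treated animal of that strain, 2730 genes differed and 448 moved in opposite directions. Without WSB/EiJ vehicle animal 3 the count of opposite genes was 1013, and with WSB/EiJ vehicle animals 1 and 2 alone it was 942. With the Actb 3′ minus 5′ difference as a covariate, 4428 genes differed between the strains, but 298 moved in opposite directions, since fewer effects passed within each strain. In that fit all 758 genes kept both signs, and 240 of them kept the opposite call. With all probe sets of each gene averaged, 625 genes moved in opposite directions, 453 of them among the 758. Of the 758 genes, 718 were tested in that fit, and 677 kept both signs. Kept signs under all these settings are favoured by the choice of these genes on the same arrays.

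**Figure D1:**
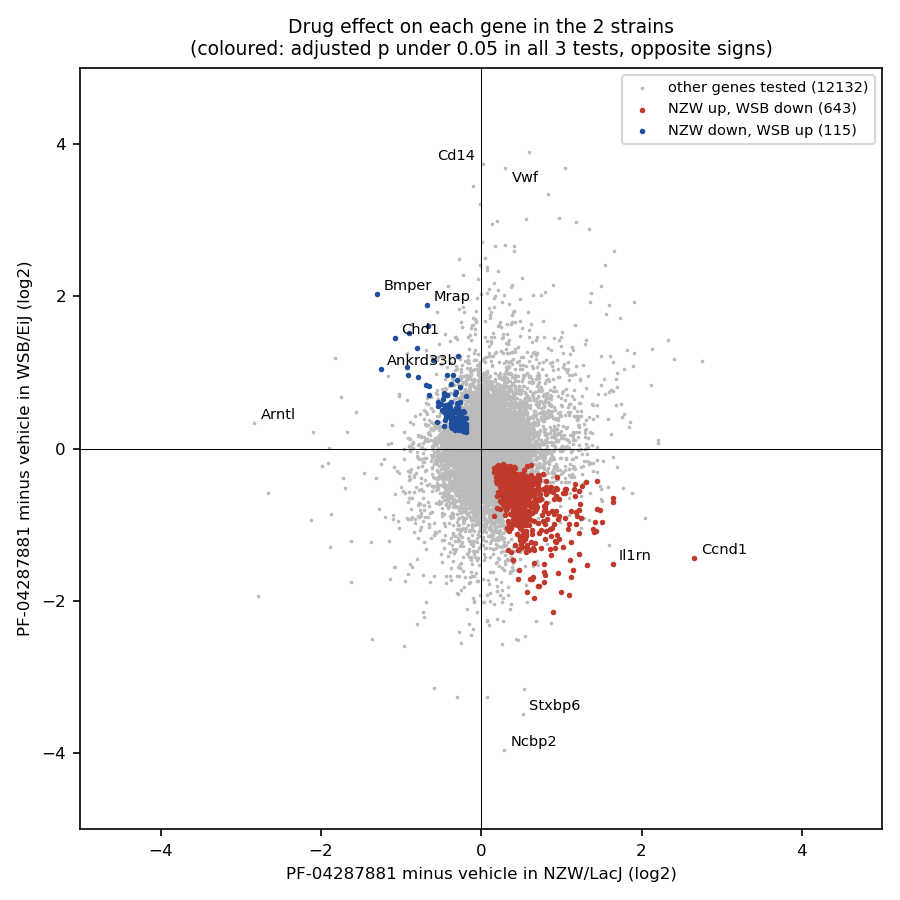
Drug effect (PF-04287881 minus vehicle, log2) of each of 12890 genes in NZW/LacJ on the x axis and WSB/EiJ on the y axis, from the limma fit without the array in doubt. The 643 genes that rose in NZW/LacJ and fell in WSB/EiJ lie at lower right and the 115 with the opposite pattern at upper left; named points outside these sets, such as Ncbp2 and Cd14, changed in 1 strain.

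Of the genes that rose in NZW/LacJ and fell in WSB/EiJ, the 15 largest are given first. Ccnd1, the cyclin D1 that drives entry into the cell cycle, had values of 12.80, 11.94, 11.52 and 12.66 in treated NZW/LacJ animals, against 9.26, 9.45, 9.82 and 9.75 in vehicle animals. In WSB/EiJ it had 9.54 and 8.89 in treated animals, against 11.05, 10.48, 9.30 and 11.81 in vehicle animals. Every treated NZW/LacJ animal lay above all its controls, while in WSB/EiJ vehicle animal 3 lay between the 2 treated animals. The effect was 2.66 ± 0.42 in NZW/LacJ (SE, adjusted p = 3.71e-05, 4 against 4 animals) and -1.44 ± 0.51 in WSB/EiJ (adjusted p = 0.0312, 2 against 4), a difference of 4.11 ± 0.66 (adjusted p = 3.41e-05).

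Il1rn, which encodes the interleukin-1 receptor antagonist, had 9.19, 9.77, 9.20 and 9.77 in treated NZW/LacJ animals, against 8.00, 8.15, 7.30 and 7.93 in vehicle animals. In WSB/EiJ it had 8.28 and 9.26 in treated animals, against 10.63, 10.65, 9.51 and 10.38 in vehicle animals. The groups of neither strain overlapped, and the difference of the effects was 3.16 ± 0.51 (1.64 in NZW/LacJ and -1.52 in WSB/EiJ, adjusted p = 3.58e-05). Ikbke, a kinase related to the I kappa B kinases, had 8.84, 8.71, 8.64 and 8.21 in treated NZW/LacJ animals, against 7.37, 7.0, 7.19 and 7.19 in vehicle animals. In WSB/EiJ its treated values of 7.99 and 8.27 stood against 9.54, 9.59, 8.11 and 9.69, where vehicle animal 3 again lay among the treated animals. Its effects were 1.41 in NZW/LacJ and -1.10 in WSB/EiJ, a difference of 2.52 ± 0.39 (adjusted p = 1.96e-05).

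Lasp1, an actin-binding adaptor, had 12.86, 12.70, 12.74 and 12.43 in treated NZW/LacJ animals, against 11.44, 11.57, 11.34 and 11.51 in vehicle animals. Its values in WSB/EiJ were 9.95 and 10.24 in treated animals, against 12.00, 10.90, 10.57 and 12.41 in vehicle animals, without overlap. The effects of Lasp1 were 1.22 and -1.38, and those of Arpin, an inhibitor of the actin-nucleating Arp2/3 complex, were 1.43 in NZW/LacJ and -1.09 in WSB/EiJ. The Lasp1 difference ranged from 0.775 to 2.9 over the 24 alternative settings. Tppp, which promotes microtubule polymerisation, had effects of 1.02 and -1.29, and Ttc8, a subunit of the BBSome that carries cargo to primary cilia, had 1.08 and -1.06.

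Hltf, a helicase-like DNA translocase, had 8.44, 8.11, 7.96 and 8.28 in treated NZW/LacJ animals, against 7.09, 7.03, 7.03 and 7.16 in vehicle animals. In WSB/EiJ it had 6.17 and 6.92 in treated animals, against 7.69, 8.03, 7.54 and 7.80 in vehicle animals. Its difference of 2.34 ± 0.24 had an adjusted p of 9.54e-08, and that of Dido1, a chromatin-binding protein, was 2.81 ± 0.34 (1.12 and -1.69, adjusted p = 1.04e-06). Over the 24 alternative settings the Dido1 difference ranged from 0.56 to 3.27. Pfas, an enzyme of purine synthesis, had effects of 1.22 in NZW/LacJ and -1.11 in WSB/EiJ, and Alpl, the tissue-nonspecific alkaline phosphatase, 1.11 and -1.47. Psmb9, an inducible catalytic subunit of the immunoproteasome, had 1.40 and -1.06, and Stap1, a signalling adaptor, 1.09 and -1.93. Pcp4l1 (1.32 and -1.54) and Fam114a1 (1.15 and -1.59) completed the 15 largest. The differences of these 15 genes all passed with the array in doubt included and with each other animal left out, and Psmb9, Hltf, Dido1, Pfas, Alpl, Stap1, Arpin, Ttc8, Tppp and Fam114a1 did not overlap between treated and vehicle animals in either strain.

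**Figure D2:**
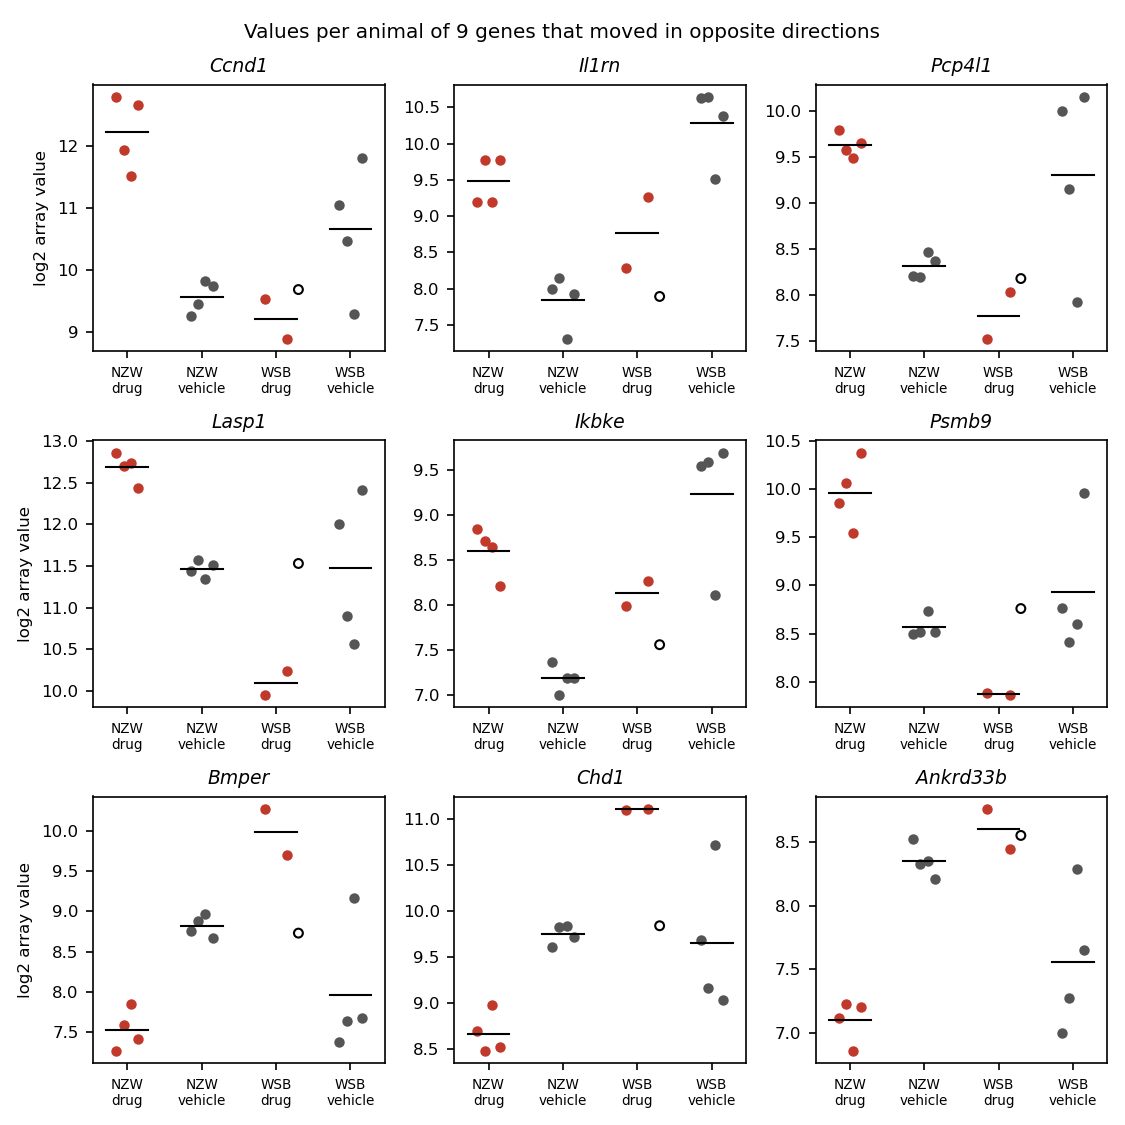
Log2 array values per animal (y axis) of 6 genes that rose in NZW/LacJ and fell in WSB/EiJ and of 3 with the opposite pattern (Bmper, Chd1, Ankrd33b), in treated and vehicle animals of each strain on the x axis. Bars are group means, and the open circle is the array in doubt, which is not in the mean and in all 9 genes lies closer to the NZW/LacJ vehicle mean than to the NZW/LacJ treated mean.

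Fewer genes fell in NZW/LacJ and rose in WSB/EiJ. Bmper, a secreted binding protein of bone morphogenetic proteins, had 7.26, 7.58, 7.85 and 7.41 in treated NZW/LacJ animals, against 8.76, 8.88, 8.97 and 8.67 in vehicle animals. In WSB/EiJ it had 10.28 and 9.70 in treated animals, against 7.37, 7.63, 9.17 and 7.67 in vehicle animals. Neither strain showed overlap, and WSB/EiJ vehicle animal 3 lay nearest to the treated animals. The difference was -3.33 ± 0.41 (-1.30 in NZW/LacJ and 2.03 in WSB/EiJ, adjusted p = 1.3e-06).

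Mrap, an accessory protein of the corticotropin receptor, had 10.33, 10.47, 10.40 and 10.25 in treated NZW/LacJ animals, against 11.03, 11.17, 11.02 and 10.93 in vehicle animals. In WSB/EiJ it had 13.33 and 12.81 in treated animals, against 11.25, 11.28, 11.40 and 10.85 in vehicle animals. The 4 WSB/EiJ vehicle animals were close together here, and the difference of -2.55 ± 0.18 had an adjusted p of 1.54e-09. Atp1b1, the beta subunit of the sodium pump, had 10.83, 11.02, 11.09 and 10.67 in treated NZW/LacJ animals, against 11.63, 11.47, 11.64 and 11.51 in vehicle animals. Its WSB/EiJ values were 13.03 and 13.34 in treated animals, against 11.47, 11.89, 11.62 and 11.35 in vehicle animals. The groups did not overlap in either strain, and the difference was -2.27 ± 0.27 (-0.66 and 1.61, adjusted p = 6.15e-07).

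Chd1, a chromatin remodeller, had effects of -1.08 in NZW/LacJ and 1.45 in WSB/EiJ, though its difference did not pass when all its probe sets were averaged (-0.32, adjusted p = 0.256). Gpat4, a glycerol-3-phosphate acyltransferase of the endoplasmic reticulum, had -0.81 and 1.32, and Flvcr1, a haem and choline transporter, -0.92 and 0.97. Snhg5, a small nucleolar RNA host gene, had -0.90 and 1.52, and the RNA-binding Hnrnpdl -0.69 and 0.83 (a difference of -0.44 with all probe sets averaged, adjusted p = 0.0672). Arl2bp (-0.93 and 1.07), Ankrd33b (-1.25 and 1.04), Txnrd3 (-0.79 and 0.94), Sft2d3 (-0.65 and 0.70), Arrdc4 (-0.65 and 0.83), Abtb2 (-0.61 and 1.16) and Tmed5 (-0.54 and 0.61) were the others of the 15 largest. Of the 30 genes named here, 15 in each direction, all kept the sign of both strain effects with the array in doubt included, without treated WSB/EiJ animal 1 and with the Actb covariate. Their choice for large effects on the same arrays favours kept signs. The opposite call itself, past the test in each strain and for the difference, was kept by 22 of the 30 with the array in doubt. With the Actb covariate 12 kept it. With all probe sets averaged, 28 of the 30 kept both signs and 22 kept the opposite call.

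The mitochondrial ribosome, which translates the proteins encoded by mitochondrial DNA, held 14 opposite genes. Of 75 members tested, 38 (50.7%, against 21.6% of all genes tested) had a higher drug effect in NZW/LacJ and 1 a lower one. Within the strains, 17 rose and 2 fell in NZW/LacJ, while 1 rose and 38 fell in WSB/EiJ, with medians of 0.0725 and -0.252. For this and the later lists, 18.3% of all genes tested rose and 8.35% fell in NZW/LacJ. In WSB/EiJ 13.8% rose and 18.6% fell. Both directions at once were met by 13 members that rose in NZW/LacJ and fell in WSB/EiJ and by Mrps23 with the opposite pattern (-0.21 and 0.25). As a share this was 17.3% of the list in the first direction, against 4.99% of all genes tested. Mrps15, a small-subunit protein, had 10.75, 10.93, 10.97 and 10.87 in treated NZW/LacJ animals, against 10.44, 10.36, 10.21 and 10.37 in vehicle animals. Its treated WSB/EiJ animals had 9.77 and 10.04, against 10.83, 10.56, 10.23 and 10.76 in vehicle animals. The groups did not overlap, with effects of 0.54 and -0.69 and a difference of 1.23 ± 0.16 (adjusted p = 1.78e-06). Mrpl1 of the large subunit had 9.36, 9.45, 9.57 and 9.26 in treated NZW/LacJ animals, against 8.90, 8.99, 8.93 and 8.99 in vehicle animals. Its WSB/EiJ values were 9.09 and 8.78 in treated animals, against 9.67, 9.43, 9.25 and 9.86 in vehicle animals, again without overlap. The others that rose in NZW/LacJ and fell in WSB/EiJ were Mrps5, Mrps14, Mrps16, Mrps25, Mrpl17, Mrpl23, Mrpl24, Mrpl42, Mrpl48, Mrpl50 and Mrpl52, with effects of 0.20 to 0.62 in NZW/LacJ and -0.68 to -0.30 in WSB/EiJ. Mrpl14, Mrpl49 and Mrps22 fell in WSB/EiJ (-1.0, -0.96 and -0.99), and their effects of 0.26, 0.09 and -0.05 in NZW/LacJ did not pass. The count of 38 was 32 with the array in doubt included, 30 without treated WSB/EiJ animal 1 and 39 with the Actb covariate.

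Promoters of mitochondrial ribosome genes often hold the letters CCGGAAG, a core bound by ETS-family factors such as GABP, which is known to drive genes of mitochondria. In RefSeq promoters (GRCm38.p6, from 250 bases before to 50 after the start, both strands, 1 start per gene) the motif was found in 23 of 66 mitochondrial ribosome genes (34.8%), 3 of the 13 opposite ones (23.1%), 114 of 529 genes that rose in NZW/LacJ and fell in WSB/EiJ (21.6%) and 16 of 96 with the opposite pattern (16.7%). It was in 16.5% of the promoters of genes tested and in 9.12% of all 27025 promoters. The 3 opposite genes with CCGGAAG are shown as examples, as stretches read along each gene's strand. CCGGAAG, or its reverse complement CTTCCGG, is in capitals. Mrps16 had a second match, with its first base at 24 relative to the start, which lies beyond the stretch shown.
Mrpl17 (chr7:105811218-105811337, minus strand): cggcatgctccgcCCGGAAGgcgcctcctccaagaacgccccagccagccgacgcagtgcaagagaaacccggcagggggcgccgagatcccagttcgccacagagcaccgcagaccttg
Mrpl52 (chr14:54426827-54426946, plus strand): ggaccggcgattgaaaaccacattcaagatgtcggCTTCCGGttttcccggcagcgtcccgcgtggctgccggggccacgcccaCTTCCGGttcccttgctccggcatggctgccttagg
Mrps16 (chr14:20393480-20393599, minus strand): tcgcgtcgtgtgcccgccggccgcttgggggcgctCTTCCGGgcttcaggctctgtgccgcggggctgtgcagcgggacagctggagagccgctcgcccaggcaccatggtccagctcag
The letters CCGGAAG were therefore more frequent in this gene family than over all genes tested (34.8% against 16.5%), and not more frequent in its opposite members (23.1%). A match is a description of letters, not a binding site.

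**Figure D3:**
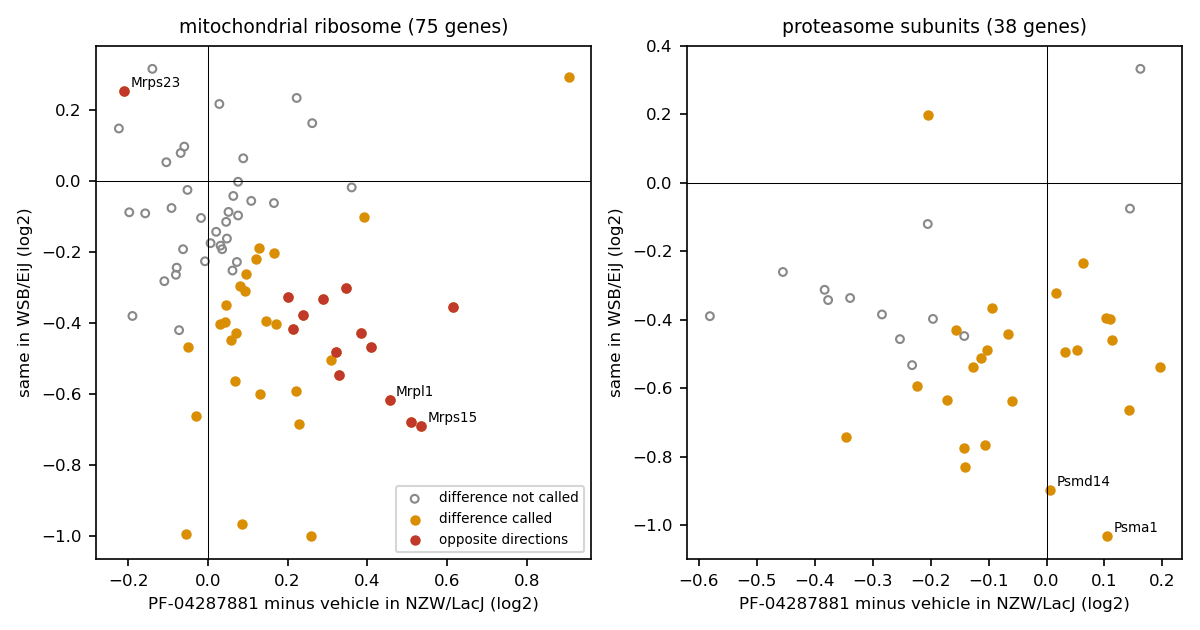
Drug effect (log2) in NZW/LacJ on the x axis and WSB/EiJ on the y axis for 75 genes of the mitochondrial ribosome and 38 proteasome genes. Filled points differed between the strains, red points also passed in each strain with opposite signs; 14 mitochondrial ribosome genes and none of the proteasome did.

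More proteasome genes fell in WSB/EiJ than in NZW/LacJ. Of 38 proteasome subunits and assembly factors, 24 (63.2%) had a higher drug effect in NZW/LacJ and 1 a lower one, but none moved in opposite directions. In NZW/LacJ none rose and 11 fell, and in WSB/EiJ none rose and 32 fell, with medians of -0.12 and -0.452. Psma1, a subunit of the catalytic core, had 11.06, 10.90, 10.86 and 10.94 in treated NZW/LacJ animals, against 10.85, 10.89, 10.68 and 10.92 in vehicle animals. The treated WSB/EiJ animals had 9.98 and 10.88, against 11.65, 11.61, 11.26 and 11.34 in vehicle animals, so the groups overlapped in NZW/LacJ alone. Psma1 fell by 1.03 in WSB/EiJ, as did the deubiquitinating subunit Psmd14 (-0.90), Psma3 (-0.66) and the assembly factor Pomp (-0.54). Without treated WSB/EiJ animal 1, 14 of the 38 differed.

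Of 22 heat shock proteins and co-chaperones, 10 (45.5%) had a higher and 2 a lower drug effect in NZW/LacJ, with medians of 0.157 in NZW/LacJ and -0.382 in WSB/EiJ. In NZW/LacJ 1 rose and 2 fell, and in WSB/EiJ 2 rose and 10 fell. Dnajb4 fell by 1.75 in WSB/EiJ, and Stip1, which links the chaperones of the heat shock protein families, fell by 0.83. Hsph1 stood at 0.70 in NZW/LacJ and -0.92 in WSB/EiJ, neither past the test, with a difference of 1.62 ± 0.50 (adjusted p = 0.0145). Dnaja2 had the opposite pattern, falling in NZW/LacJ (-0.24) and rising in WSB/EiJ (0.28). The count of 10 was 6 with the array in doubt included and 6 without treated WSB/EiJ animal 1. Of 26 genes of the unfolded protein response, 6 had a higher (23.1%) and 3 a lower effect (11.5%) in NZW/LacJ, shares close to the 21.6% and 11.4% of all genes tested, and 15 fell in WSB/EiJ against 6 in NZW/LacJ. They included Pdia4, a disulfide isomerase of the endoplasmic reticulum (-0.08 in NZW/LacJ and -1.35 in WSB/EiJ).

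Of 43 genes of ribosome biogenesis, none had a higher and 8 a lower effect in NZW/LacJ (18.6%, against 11.4% of all genes tested), with medians of -0.153 in NZW/LacJ and 0.13 in WSB/EiJ. Wdr43 moved in opposite directions, and the ribosomal RNA processing factors Nop58 and Ftsj3 fell in NZW/LacJ (-0.79 and -0.74), at 0.18 and 0.01 in WSB/EiJ. Of 26 cytosolic ribosomal proteins, 3 (11.5%, under the share of all genes) had a higher effect in NZW/LacJ (Rpl12, Rpl14 and Rps6) and none a lower one. Among 35 RNA splicing factors 7 had a higher (20%) and 4 a lower effect (11.4%), near the shares of all genes, with Hnrnpa2b1 (0.55 and -1.11), Prpf8 (0.33 and -0.26) and Sf3b2 (0.21 and -0.28) opposite between NZW/LacJ and WSB/EiJ.

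Genes of fatty acid oxidation and targets of PPAR alpha, the fatty acid sensor of liver, fell in WSB/EiJ. Of 37 tested, 18 (48.6%) had a higher drug effect in NZW/LacJ and 1 a lower one. In NZW/LacJ 4 rose and 7 fell, and in WSB/EiJ 1 rose and 22 fell, with medians of 0.0347 and -0.554. Acadl, an acyl-CoA dehydrogenase of mitochondria, was the member that moved in opposite directions. It had 12.90, 12.91, 13.07 and 13.05 in treated NZW/LacJ animals, against 12.74, 12.73, 12.76 and 12.81 in vehicle animals, and in WSB/EiJ 12.51 and 12.60 in treated animals, against 12.97, 12.98, 13.02 and 12.98 in vehicle animals. The groups did not overlap, with effects of 0.22 and -0.43. The ketone body enzyme Bdh1 fell by 2.11 in WSB/EiJ, at 0.36 in NZW/LacJ. Vnn1, a pantetheinase, fell by 2.25 in WSB/EiJ, at 0.07 in NZW/LacJ. With the array in doubt included, the count of 18 was 7. Of 68 respiratory chain subunits, 15 (22.1%, close to the 21.6% of all genes) had a higher effect in NZW/LacJ and none a lower one, and 19 fell in WSB/EiJ, Ndufs7 (-0.56) and Ndufab1 (-0.44) among them. That count was 6 with the array in doubt and 24 without WSB/EiJ vehicle animal 3.

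Sterol synthesis showed the opposite order. Of 20 genes of cholesterol synthesis and uptake, 1 had a higher and 10 (50%, against 11.4% of all genes tested) a lower effect in NZW/LacJ. In NZW/LacJ 2 rose, and in WSB/EiJ 13 rose, with medians of 0.48 and 1.45, and none fell in either strain. Cyp51, the lanosterol demethylase, had 11.20, 7.74, 8.30 and 9.45 in treated NZW/LacJ animals, against 8.54, 8.68, 8.24 and 8.87 in vehicle animals. Treated animals of WSB/EiJ had 11.43 and 10.74, against 6.92, 6.85, 7.33 and 7.71 in vehicle animals. Treated NZW/LacJ animals ranged on both sides of their controls, and the WSB/EiJ groups did not overlap. The difference was -3.29 ± 0.83 (0.59 and 3.89, adjusted p = 0.00325, and 0.0533 with all its probe sets averaged). Tm7sf2, a sterol reductase, had -0.55 in NZW/LacJ and 1.79 in WSB/EiJ. The count of 10 was 4 with the array in doubt included and 4 without treated WSB/EiJ animal 1. Of 25 genes of fatty acid synthesis 4 were higher and 4 lower (16% each), the desaturase Scd1 falling in NZW/LacJ (-1.16), at 0.95 in WSB/EiJ.

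The NRF2 list, genes of the antioxidant response, had 15 of 34 members (44.1%) with a higher drug effect in NZW/LacJ and 1 with a lower one. In NZW/LacJ 6 rose and 2 fell, and in WSB/EiJ 2 rose and 14 fell, with medians of 0.0587 and -0.299. Gstp1, a glutathione transferase, Abcc3, an exporter of conjugates, and Txn1, thioredoxin, moved in opposite directions (0.54 and -0.79, 0.64 and -0.40, and 0.28 and -0.51). Nqo1, a quinone reductase and classical NRF2 target, had 8.64, 7.85, 8.29 and 8.01 in treated NZW/LacJ animals, against 7.87, 7.89, 7.97 and 7.72 in vehicle animals. Its treated WSB/EiJ animals had 7.82 and 7.94, against 9.62, 9.31, 9.10 and 9.35 in vehicle animals. The NZW/LacJ groups overlapped and the WSB/EiJ groups did not, with a difference of 1.81 ± 0.21 (adjusted p = 4.2e-07). Nfe2l2, which encodes NRF2 itself, fell by 1.92 in WSB/EiJ, at 0.24 in NZW/LacJ, but its difference turned to -0.68 (adjusted p = 0.0265) with all its probe sets averaged.

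Drug metabolism genes controlled by the receptors CAR and PXR had 4 of 50 members higher and 12 (24%, against 11.4% of all genes tested) lower in NZW/LacJ. Cyp2b10, a cytochrome typical of CAR activation, fell by 2.10 in NZW/LacJ, at 0.21 in WSB/EiJ, and Cyp3a44 fell by 1.68, at 0.21 in WSB/EiJ. The sulfotransferase Sult1d1 was opposite (-0.32 and 0.39). Of 26 genes of bile acid synthesis and transport 8 were higher (30.8%, against 21.6% of all genes tested) and 4 lower (15.4%), with the conjugating enzyme Baat falling in WSB/EiJ (-1.57). Of 27 genes of the urea cycle and amino acid breakdown none was higher and 7 were lower (25.9%), with Nags, which makes the activator of the urea cycle, opposite (-0.45 in NZW/LacJ and 0.56 in WSB/EiJ). Glycogen and sugar genes held 2 opposite members, Phka2, a phosphorylase kinase subunit (0.59 and -0.44, the difference lost at 0.24 and an adjusted p of 0.104 with all probe sets averaged), and Pfkl, the liver phosphofructokinase (0.67 and -0.76). Counts were 4 higher (19%) and 1 lower of 21 gluconeogenesis and glycogen genes and 2 higher (14.3%) and none lower of 14 glycolysis genes, both under the share of all genes with a higher effect. Of 23 sex-dimorphic and growth hormone responsive liver genes 1 was higher and 3 were lower (13%, near the 11.4% of all genes), among them the transporter Slco1a1 (-0.87 and 1.63).

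**Figure D4:**
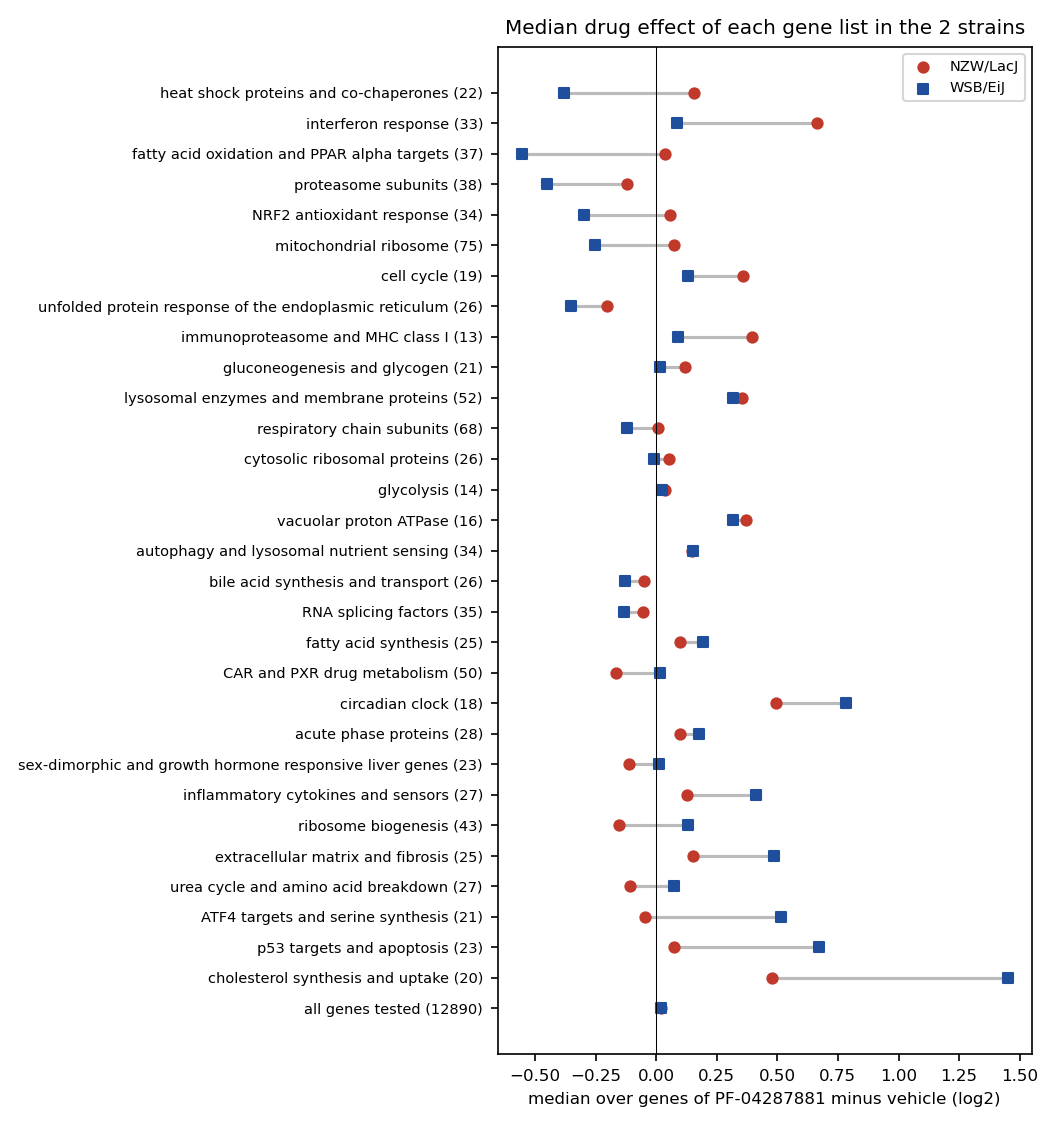
Median drug effect (log2, x axis) over the tested members of each pathway list with at least 10 of them, in NZW/LacJ (circles) and WSB/EiJ (squares), ordered by the median difference, with all genes tested at the bottom. The 2 strains lie on opposite sides of 0 for, among others, heat shock proteins, fatty acid oxidation, NRF2 and the mitochondrial ribosome, and close together for lysosomal genes and the proton ATPase.

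Lysosomal genes, the group tied to phospholipid storage, rose more often than they fell in both strains. Of 52 lysosomal enzymes and membrane proteins, 32 rose and none fell in NZW/LacJ, and 23 rose and 5 fell in WSB/EiJ, with medians of 0.354 and 0.317. The difference passed for 13 members (25%, near the 21.6% of all genes) with a higher effect in NZW/LacJ and 2 with a lower one, and without treated WSB/EiJ animal 1 for 4 with a higher effect. Ids, a sulfatase of glycosaminoglycan breakdown (0.41 in NZW/LacJ and -0.89 in WSB/EiJ), Pla2g15, the lysosomal phospholipase A2 (0.64 and -0.47), Acp2, the lysosomal acid phosphatase (0.16 and -0.89), and Lamp2, a membrane glycoprotein (0.24 and -0.26), moved in opposite directions. Hexa, a hexosaminidase, had 11.82, 11.22, 11.35 and 11.68 in treated NZW/LacJ animals, against 10.36, 10.39, 10.28 and 10.18 in vehicle animals. The treated WSB/EiJ animals had 10.74 and 11.30, against 10.68, 10.73, 10.44 and 10.52 in vehicle animals. Neither strain showed overlap, and its effect of 1.21 ± 0.15 in NZW/LacJ was larger than the 0.42 ± 0.18 in WSB/EiJ (difference adjusted p = 0.0101, and 0.171 without treated WSB/EiJ animal 1). The vacuolar proton ATPase had 12 of 16 subunits higher in NZW/LacJ and 8 in WSB/EiJ, where Atp6v1a fell (0.38 and -0.53). The difference passed for 2 of its subunits (12.5%), under the 21.6% of all genes with a higher effect in NZW/LacJ. Of 34 genes of autophagy and lysosomal nutrient sensing, 7 were higher (20.6%) and 8 lower (23.5%), with Atg12 opposite (-0.19 and 0.70). Atg4b was opposite too (-0.21 and 0.32), though not with its probe sets averaged.

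More interferon-responsive genes rose in NZW/LacJ than in WSB/EiJ. Of 33 tested, 20 rose and none fell in NZW/LacJ, and 4 rose and 5 fell in WSB/EiJ, with medians of 0.663 and 0.084. The difference passed for 9 (27.3%, against 21.6% of all genes) with a higher effect in NZW/LacJ and for 1 with a lower one. Ifih1, a sensor of double-stranded RNA, had 10.39, 10.28, 10.18 and 10.30 in treated NZW/LacJ animals, against 9.34, 9.24, 9.37 and 9.41 in vehicle animals. Treated animals of WSB/EiJ had 9.06 and 9.09, against 9.43, 9.44, 9.16 and 10.39 in vehicle animals. The groups did not overlap, with effects of 0.95 and -0.53 and a difference of 1.48 ± 0.24 (adjusted p = 4.01e-05). Parp14, a mono-ADP-ribosyltransferase, was the other opposite member (1.02 and -0.58). Ddx58, the RIG-I sensor, and Ifi35 rose in NZW/LacJ by 0.77 and 0.70, at -0.34 and -0.22 in WSB/EiJ, and Stat2, which carries the interferon signal to DNA, fell by 1.30 in WSB/EiJ, at 0.24 in NZW/LacJ.

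Of 9 interferon-inducible GTPases, 4 had a higher (44.4%) and 1 a lower effect (11.1%) in NZW/LacJ, against 21.6% and 11.4% of all genes tested. Gbp7 had 8.35, 8.41, 7.80 and 8.29 in treated NZW/LacJ animals, against 6.14, 6.31, 6.12 and 6.13 in vehicle animals. Its treated WSB/EiJ animals had 7.02 and 7.01, against 7.80, 7.70, 7.35 and 8.88 in vehicle animals, again with no overlap in either strain. Its effect was 2.04 ± 0.31 in NZW/LacJ and -0.92 ± 0.38 in WSB/EiJ, the second short of the test (adjusted p = 0.0689), with a difference of 2.96 ± 0.50 (adjusted p = 5.75e-05). Iigp1 fell by 1.75 in WSB/EiJ, at 0.25 in NZW/LacJ. Of 13 genes of the immunoproteasome and MHC class I, 7 rose in NZW/LacJ (53.8%, against 18.3% of all genes tested). The difference passed for Psmb9, Psmb10 and Psmb8, the inducible catalytic subunits (23.1%, near the 21.6% of all genes). Psmb10 had effects of 1.17 and -0.27 and Psmb8 of 0.87 and 0.09, the last difference lost under 14 of the 24 alternatives (adjusted p up to 0.179). None of 6 MHC class II genes differed between the strains.

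Several inflammatory and acute phase genes rose in WSB/EiJ and did not pass in NZW/LacJ. Of 27 inflammatory cytokines and sensors, 1 had a higher and 5 a lower effect in NZW/LacJ (18.5%, against 11.4% of all genes tested), where 3 rose, against 11 that rose in WSB/EiJ. Cd14, the co-receptor for bacterial lipopolysaccharide, had 8.74, 8.39, 8.06 and 8.45 in treated NZW/LacJ animals, against 8.44, 8.63, 8.37 and 8.09 in vehicle animals. The treated WSB/EiJ animals had 13.13 and 13.08, against 8.85, 9.44, 10.72 and 8.43 in vehicle animals. The NZW/LacJ groups overlapped and the WSB/EiJ groups lay far apart, a difference of -3.72 ± 0.47 (adjusted p = 1.77e-06, and 0.0769 with the array in doubt included). Socs3, a feedback inhibitor of cytokine signalling, rose in WSB/EiJ by 2.67 and Nfkbiz, a nuclear I kappa B protein, by 1.71, at 0.30 and -0.10 in NZW/LacJ. Of 28 acute phase proteins, 2 were higher and 8 lower in NZW/LacJ (28.6%). Saa2 rose in WSB/EiJ by 2.99 and Orm1 by 1.20, at 0.19 and 0.06 in NZW/LacJ. Saa1 rose by 2.95 (difference adjusted p = 0.0202, and up to 0.0886 with the array in doubt or without either treated WSB/EiJ animal).

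Of 23 p53 targets and apoptosis genes, 2 were higher (8.7%) and 6 lower (26.1%, against 11.4% of all genes tested) in NZW/LacJ, where 3 rose, against 11 in WSB/EiJ. Bcl2l1, an inhibitor of apoptosis, had 8.84, 8.69, 8.59 and 8.73 in treated NZW/LacJ animals, against 8.65, 8.50, 8.49 and 8.41 in vehicle animals. Treated animals of WSB/EiJ had 11.71 and 11.67, against 9.16, 9.71, 9.68 and 8.89 in vehicle animals. The WSB/EiJ groups were far apart and the NZW/LacJ groups overlapped (difference -2.13 ± 0.19, adjusted p = 1.64e-08, and 0.0915 with the array in doubt). Bid, which promotes apoptosis, rose in NZW/LacJ by 1.59, at 0.38 in WSB/EiJ. Of 19 cell cycle genes 3 were higher (15.8%) and 1 lower (5.26%), both under the 21.6% and 11.4% of all genes tested. Mcm2, of the replicative helicase, had 10.08, 8.72, 8.26 and 10.37 in treated NZW/LacJ animals, against 7.69, 8.03, 7.78 and 7.63 in vehicle animals, and 7.97 and 8.18 in treated WSB/EiJ animals, against 8.58, 8.49, 8.85 and 8.39 in vehicle animals. It rose in NZW/LacJ (1.58, without overlap) and did not pass in WSB/EiJ (-0.51).

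Of 18 clock genes 1 was higher (5.56%) and 4 lower (22.2%), against 21.6% and 11.4% of all genes tested. Arntl, the activator of the clock, had 6.37, 5.97, 6.32 and 6.71 in treated NZW/LacJ animals, against 9.29, 9.15, 9.32 and 8.92 in vehicle animals, and 10.58 and 10.61 in treated WSB/EiJ animals, against 10.20, 10.64, 10.16 and 10.02 in vehicle animals. It fell by 2.83 in NZW/LacJ and did not pass in WSB/EiJ (0.33). Nr1d1, a repressor of Arntl, had 8.84 and 10.72 in treated WSB/EiJ animals, against 6.80, 6.81, 7.23 and 8.33 in vehicle animals. It rose there by 2.49, at -0.27 in NZW/LacJ. Clock transcripts swing with the hour of sampling, which is not given in the sources used here. Of 21 ATF4 targets 4 were higher (19%) and 5 lower (23.8%), and of 25 extracellular matrix genes none was higher and 3 were lower (12%), with Col4a1 rising in WSB/EiJ by 2.05 and Postn by 1.70.

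Outside the opposite genes, most of the largest differences belonged to genes that changed in WSB/EiJ and did not pass in NZW/LacJ. Ncbp2, a subunit of the nuclear cap-binding complex, had 9.41, 9.29, 9.23 and 9.49 in treated NZW/LacJ animals, against 9.16, 9.27, 8.84 and 9.01 in vehicle animals. Its treated WSB/EiJ animals had 4.61 and 5.52, against 9.57, 9.01, 8.43 and 9.09 in vehicle animals, a fall of all treated animals far below every control (difference 4.24 ± 0.33, adjusted p = 3.97e-09). Stxbp6, an inhibitor of vesicle fusion, had 9.91, 9.96, 9.76 and 9.89 in treated NZW/LacJ animals, against 9.26, 9.36, 9.32 and 9.50 in vehicle animals, an effect short of the test (0.52, adjusted p = 0.0757). The treated WSB/EiJ animals had 6.04 and 5.53, against 9.61, 9.07, 8.31 and 10.11 in vehicle animals, and fell by 3.49. Crebzf, a basic leucine zipper protein, fell by 3.26 in WSB/EiJ, at 0.07 in NZW/LacJ, and so did Meiob, a meiosis factor (-3.16), and the hepatokine Fgf21 (-3.27). Aox1, an aldehyde oxidase, Keg1, and Abcd2, a peroxisomal transporter of fatty acids, fell there too (-2.46, -2.29 and -2.27).

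Vwf, the von Willebrand factor made by endothelial cells, had 10.47 and 9.90 in treated WSB/EiJ animals, against 6.77, 6.31, 6.52 and 6.37 in vehicle animals. In NZW/LacJ it had 7.37, 6.56, 6.71 and 7.47 in treated animals, against 6.99, 6.23, 7.04 and 6.64 in vehicle animals. It rose in WSB/EiJ by 3.69 ± 0.25 and its groups overlapped in NZW/LacJ. Trim63, a ubiquitin ligase of muscle wasting, had 9.05 and 10.58 in treated WSB/EiJ animals, against 5.92, 7.27, 7.79 and 4.49 in vehicle animals, and lay between 3.76 and 4.21 in all 8 NZW/LacJ animals. Those NZW/LacJ values lay under the filter limit of 6.49 and near the lowest value of the arrays (2.71). A fall of Trim63 in NZW/LacJ could therefore not be seen, and its difference rests on WSB/EiJ. Rab30, a small GTPase of the Golgi, rose in WSB/EiJ by 3.22. The differences of Trim63 and Rab30 did not pass with the array in doubt included (adjusted p = 0.274 and 0.178). Nnmt, a methyltransferase of nicotinamide, fell by 1.82 in NZW/LacJ, at 1.19 in WSB/EiJ (adjusted p = 0.0872).

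Markers of liver cell types were counted in the same way. In whole tissue, fewer cells of a type and less RNA per cell cannot be told apart. Of 17 markers of monocytes and lipid-laden macrophages, 11 rose in NZW/LacJ (64.7%, against 18.3% of all genes tested). In WSB/EiJ 3 rose (17.6%, near the 13.8% of all genes), and for none of the 17 did the difference pass. The largest was that of Gpnmb, at 2.76 in NZW/LacJ and 1.15 in WSB/EiJ (difference 1.61 ± 0.76, adjusted p = 0.103). Of 20 Kupffer cell markers, 7 rose in NZW/LacJ (35%), and 9 rose (45%) and 2 fell (10%) in WSB/EiJ. For 10% of them the effect was higher in NZW/LacJ by the test of the difference, under the 21.6% of all genes tested. The difference passed for Slc40a1, the iron exporter, and for Nr1h3, the oxysterol receptor LXR alpha, which was opposite (0.24 and -0.52) and is also made by hepatocytes. Of 17 hepatocyte markers above the filter, 1 was higher (Ahsg) and 2 were lower (Hnf4a and Tat), with medians of -0.0234 in NZW/LacJ and -0.0454 in WSB/EiJ. The difference passed for none of 7 neutrophil, 6 B and plasma cell and 4 cholangiocyte markers, for Prf1 of 7 T and NK cell markers, Clec4g of 17 sinusoidal endothelial markers, Reln of 13 stellate cell markers and Car2 of 5 erythroid markers. Several of these calls were lost under some of the 24 alternatives, Ahsg under 13 and Tat and Reln under 11 each (the last 2 at adjusted p up to 0.225 and 0.437). Clec4g was lost under 4, Prf1 under 3, and Car2, Hnf4a and Slc40a1 under 2 each. The part of cell composition in the pathway results was not tested.

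The 2 other strains, whose drug effects were not used to choose the opposite genes, showed weaker movement. Their arrays did enter that choice through the shared spread per gene, the filter and the choice of probe set. With the arrays of NZW/LacJ and WSB/EiJ alone in the fit, 467 of the 758 opposite genes kept the call. MA/MyJ, coded for Kupffer cell vacuolation like NZW/LacJ, had 941 changed genes (7.3% of all tested, 672 higher or 5.21%, and 269 lower or 2.09%). SM/J, coded for neither finding, had 600 (4.65%, 343 higher or 2.66%, and 257 lower or 1.99%). Of the 643 genes that rose in NZW/LacJ and fell in WSB/EiJ, 84 rose (13.1%) and 7 fell (1.09%) in MA/MyJ, with a median effect of 0.101, and 17 rose (2.64%) and 12 fell (1.87%) in SM/J, with a median of -0.0288. In MA/MyJ 450 of the 643 (70%) had a positive effect, against 51.4% of all genes tested, and in SM/J 277 (43.1%), against 49.1%. Of the 115 genes with the opposite pattern, 3 rose (2.61%) and 9 fell (7.83%) in MA/MyJ. In SM/J 2 rose and 2 fell (1.74% each), both under the shares of all genes tested. Ccnd1 rose in MA/MyJ by 2.03 (adjusted p = 0.00326), as did Arpin by 0.78, Ikbke by 0.89, Ifih1 by 0.62 and Hltf by 0.53, while Il1rn stood at -0.24. Bmper rose in SM/J by 0.99 (adjusted p = 0.0245), at -0.30 in MA/MyJ. Of the same 643 genes, 43 rose in MA/MyJ with the array in doubt included and 24 with the Actb covariate. The Actb 3′ minus 5′ difference was higher in treated MA/MyJ animals too (1.19 to 1.38, against 0.93 to 0.992 in vehicle animals), without overlap. In SM/J it was 0.907 to 1.29 in treated and 0.868 to 0.932 in vehicle animals, with overlap. Its part in the MA/MyJ values was not tested beyond the covariate fit.

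The mean over the 643 genes, relative to each strain's own vehicle mean, was 0.555, 0.506, 0.514 and 0.511 in treated NZW/LacJ animals, against -0.033, -0.0276, 0.0132 and 0.0475 in vehicle animals. It was -0.745 and -0.581 in treated WSB/EiJ animals, against 0.0734, -0.0288, -0.158 and 0.113 in vehicle animals. The 4 treated NZW/LacJ animals lay close together, and the spread among WSB/EiJ animals was wider in both groups. In MA/MyJ it was 0.0798, 0.0917, 0.146 and 0.176 in treated animals, against -0.0039, -0.0172, -0.124 and 0.145 in vehicle animals, an overlap by 1 control. For the 115 genes the treated WSB/EiJ values were 0.618 and 0.497, against -0.0687, 0.0168, 0.239 and -0.187 in vehicle animals, where animal 3 lay toward the treated animals. The treated NZW/LacJ values were -0.381, -0.423, -0.359 and -0.42, against -0.00947 to 0.00872 in vehicle animals. Since these genes were chosen for their movement in NZW/LacJ and WSB/EiJ, those values are a description.

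**Figure D5:**
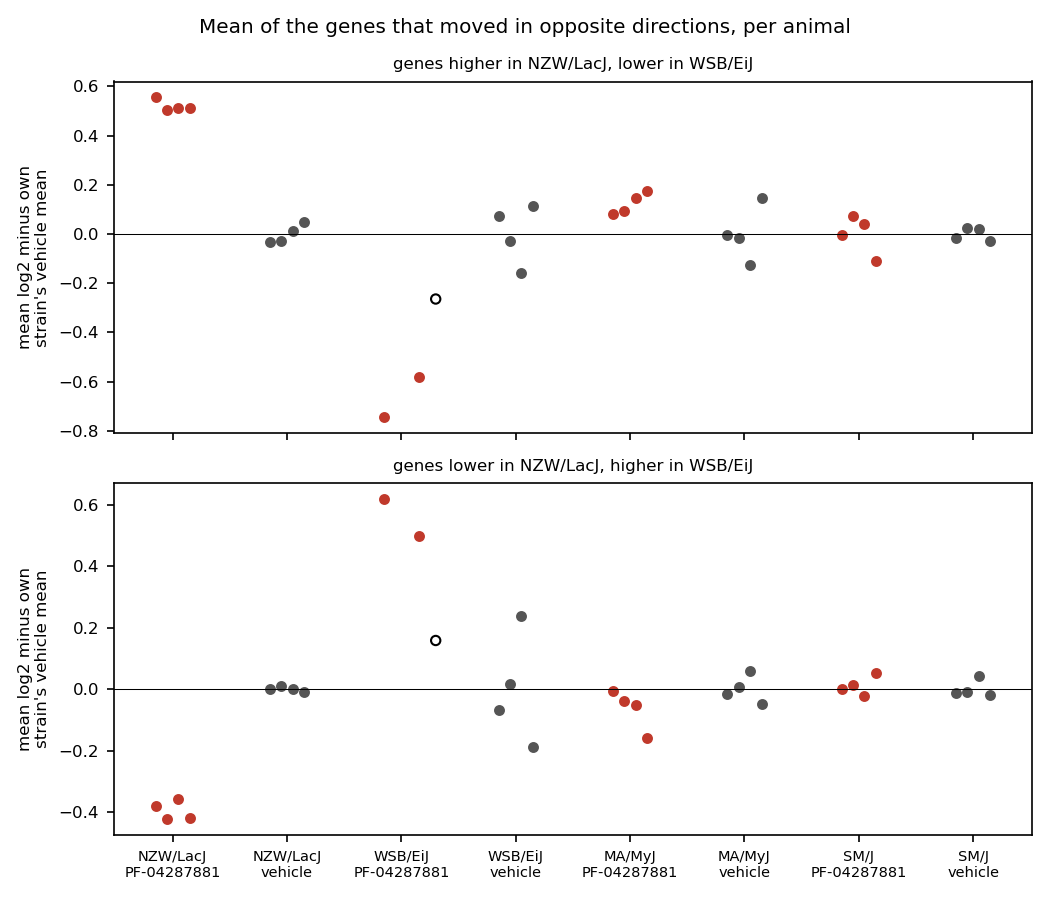
Mean log2 value of the 643 genes (top) and the 115 genes (bottom) per animal, relative to the mean of the vehicle animals of the same strain (y axis), in treated and vehicle animals of 4 strains (x axis). The open circle is the array in doubt, set against the WSB/EiJ vehicle mean by its label though its probe values resembled NZW/LacJ, so that its height is not a measured drug response; treated NZW/LacJ and WSB/EiJ animals lie on opposite sides of 0, and treated SM/J animals around 0.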

How the data were processed

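Liver RNA of 31 animals was measured on 1-colour arrays. The deposited values were log2 units per probe set, made by the authors with Affymetrix Power Tools and RMA, per the submitters' processing notes, which name no settings. RMA in its usual form corrects background, normalises quantiles and summarises each probe set, so levels are not compared between genes. No versions or scan dates were given in the sources used, and the number of arrays limits the precision. The members and gene lists were chosen with earlier results of these data known.

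Of 44721 probe sets, 34728 had 1 gene symbol, 872 several and 9121 none; symbols were updated through Entrez numbers for 34525. Where a gene had several probe sets (7531 of the genes tested), the one of highest average signal stood for it. Genes above the median of all values (6.49) in at least 3 arrays were tested, 12890 of 18147. A model with 1 mean per group was fitted with limma 3.58.1 (R 4.3.3) to 30 arrays, all but the one in doubt, with eBayes (3.58 prior and 22 residual degrees of freedom) and Benjamini-Hochberg adjustment over all genes. The SE is the model's, from 1 spread per gene shared by all 8 groups. Adjusted p under 0.05 was called. Replicates are separate animals. Genes named were, per direction, the 15 opposite genes with the largest smaller effect, the 8 largest other differences, per list up to 4 opposite and 4 called members (or the 2 largest differences where none was called), and 2 on each side of the limit; 694 predicted or clone names were not named. Other members named beside small counts were chosen after their values were seen. In simulated data with 12890 genes and opposite changes, 98 of 100 differences and 90 of 100 opposite patterns were recovered at a log2 change of 1 in each strain, 82 and 47 at 0.5, with 4.76% false calls. Whether these rates hold for the arrays of this series was not tested. In those arrays 4251 genes were called, and WSB/EiJ vehicle animals were less alike than NZW/LacJ ones. Promoter stretches were read from a RefSeq table of GRCm38.p6.

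The alternatives were each animal left out, the array in doubt included, the arrays of both strains alone, a replicate block, other filters, all probe sets averaged, trend and robust moderation and median centring. A fit with the Actb control probe difference as a covariate and one with WSB/EiJ vehicle animals 1 and 2 alone were chosen after seeing the data.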

Additional observations from a re-analysis of the deposited data

Results flagged for a closer look

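The drug effect differed between NZW/LacJ and WSB/EiJ by a test of the difference itself in 4251 genes, and 758 genes moved in opposite directions. These are the counts of the report.

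Among the 46 genes with the largest opposite or other differences, 138 groups of 4 animals were examined for an animal far from the others, and 8 were found. Chance gives about 1 in 20. In 3 of them the animal was WSB/EiJ vehicle animal 3, at 9.60 for Aox1, 8.11 for Ikbke and 9.17 for Bmper, each on the side of the treated animals of that strain. In treated NZW/LacJ animals, Arpin was at 9.44 in animal 1, Saa1 at 13.59 in animal 2 and Trim63 at 3.76 in animal 3. All Trim63 values of that group lay under the filter limit of 6.49. In NZW/LacJ vehicle animals, Abcd2 was at 9.64 in animal 1 and Psmb9 at 8.73 in animal 3.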

How the results depend on the processing

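Among the counts over all genes, those that moved by over 1.5 times did so under the following settings. With the array in doubt included, 956 genes had a lower drug effect in NZW/LacJ, 2488 changed in WSB/EiJ (891 higher and 1597 lower), 70 fell in NZW/LacJ and rose in WSB/EiJ, and of the 643 genes that rose in NZW/LacJ and fell in WSB/EiJ 43 rose in MA/MyJ and 10 in SM/J. With the arrays of these 2 strains alone, 501 genes moved in opposite directions, 51 of them lower in NZW/LacJ, and MA/MyJ and SM/J were not in the fit. With each array centred on its median, 72 fell in NZW/LacJ and rose in WSB/EiJ, and with WSB/EiJ vehicle animals 1 and 2 alone 187 did, with 26 of the 643 higher in SM/J. With the Actb covariate, 2144 genes changed in NZW/LacJ (1358 higher), 2187 in WSB/EiJ (586 higher) and 3173 differed between vehicle groups (1482 higher and 1691 lower). In that fit 298 genes moved in opposite directions (269 and 29), and 24 of the 643 rose in MA/MyJ.

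Leaving out 1 animal at a time gave 2730 to 4840 genes that differed between the strains (749 to 1889 lower in NZW/LacJ), 2187 to 4797 that changed in WSB/EiJ (813 to 2191 higher, 1374 to 2606 lower) and 448 to 1013 opposite genes (398 to 803 and 50 to 210). The lowest were without treated WSB/EiJ animal 1 and the highest without WSB/EiJ vehicle animal 3. A lone treated WSB/EiJ animal is assumed to vary like the other groups, as the treated WSB/EiJ animals are in the main fit.

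The replicate numbers did not pair the animals: correlations of same-numbered treated and vehicle animals were -0.0405, -0.101, -0.0532 and -0.0706 in NZW/LacJ and -0.0328 and 0.204 in WSB/EiJ. With the replicate block 4127 genes differed between the strains and 727 moved in opposite directions.

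Single genes turned in sign as follows, and the cause was not tested. With all probe sets averaged, the difference was 0.126 for Asf1a, 0.166 for Atg4b, 0.839 for Cux2 and -0.68 for Nfe2l2. With the array in doubt it was 0.334 for Lcn2, -0.141 for Manba and -0.017 for Rpl14. With WSB/EiJ vehicle animals 1 and 2 alone it was 0.075 for Lcn2 and 0.09 for Sox9. Leaving out 1 animal gave -0.145 to 0.022 for Cd79a and -0.514 to 0.087 for Lcn2.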

Other observations

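Several gene families chosen after seeing the data moved in opposite directions, and their counts are a description. Of 37 mitochondrial tRNA synthetases and translation factors, 19 rose and none fell in NZW/LacJ, and none rose and 26 fell in WSB/EiJ, with medians of 0.224 and -0.458. In 14 (37.8%, against 4.99% of all genes tested) the effect passed in both strains in these directions. They included Mterf2, a mitochondrial transcription factor relative (1.51 in NZW/LacJ and -0.97 in WSB/EiJ), Mettl15, a methyltransferase of mitochondrial ribosomal RNA (1.19 and -0.89), and Tars2, the mitochondrial threonyl-tRNA synthetase (0.60 and -0.44). Of 62 genes of DNA replication and repair, 18 (29%) rose in NZW/LacJ and fell in WSB/EiJ. Among these were Pold2, a DNA polymerase delta subunit (0.60 and -0.86), Xrcc5 and Xrcc6, the Ku proteins of end joining (0.66 and -0.95, and 0.46 and -0.91), and the helicase Wrn (0.67 and -0.81).

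The same pattern was met by 10 of 27 genes of the coat protein I and TRAPP complexes of Golgi traffic (37%), by 8 of 22 of purine and pyrimidine synthesis (36.4%) and by 6 of 15 poly(ADP-ribose) polymerase family genes (40%). Prps2, which makes the ribose donor of nucleotides, had 1.45 in NZW/LacJ and -0.80 in WSB/EiJ, and the mono-ADP-ribosyltransferase Parp11 had 0.96 and -1.64. It was also met by 6 of 23 subunits of the SWI/SNF complex (26.1%), Smarca2, one of its ATPases, at 1.45 and -0.43, and by 5 of 26 genes of intraflagellar transport and the BBSome (19.2%), with Ift81 at 0.97 and -0.88. No member of these 7 families tested had the opposite pattern, which only 0.892% of all genes tested had. The choice of the families after seeing the data also favours this.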
